A study of Mus musculus with 15 samples.

Results

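The 10 genes described here belong to the unfolded protein response of the endoplasmic reticulum and were followed in the hearts of mice 3 days after pressure overload. Hspa5, Hsp90b1, Calr, Dnajb9, Creld2, Pdia4, Pdia6, Xbp1, Manf and Herpud1 were picked by symbol as chaperones of this compartment and targets of the transcription factors XBP1 and ATF6. They were found through the transcript accession of each array probe, which gave 16 probes, and are 10 of 25780 features tested, 14916 of which had a gene name. All 16 probes read well above background on all 15 arrays, so no member was lost to the filter on dim probes. Where a gene had several probes, the brightest stood for it.

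The arrays measured total RNA of the heart apex of male C57BL6 mice aged 10 weeks. Animals had either transverse aortic constriction (TAC), in which the aortic arch is narrowed so that the left ventricle pumps against a higher pressure, or a sham operation, and were sampled after 3 days. All animals carried the MHC-cre transgene, in which a myosin heavy chain promoter drives cre recombinase in heart muscle cells. Those labelled MHC-cre are called Cre here, and those labelled MHC-cre-klf4, in which cre deletes the zinc-finger transcription factor gene Klf4, are called KO. Cells of the apex other than heart muscle would keep Klf4 in this model. The study's design names 4 animals per group, and 15 arrays were analysed here, 4 sham and 3 TAC of Cre animals and 4 of each operation of KO animals. Levels are log2 signals relative to each array's 75th percentile, so that 0 is the level of the probe at that percentile.

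Facts about the labels and arrays bear on every value below. The same array was found in the authors' deposited value table for 14 of 15 scanner files, and each of the 14 carried the opposite genotype there, with its operation unchanged, so the direction of each genotype difference is unsettled and groups are written as filed as Cre or filed as KO, after the scanner files. Klf4 itself did not separate the genotypes: its level ran from 3.72 to 4.30 and 3.99 to 4.25 in sham and TAC arrays filed as Cre, and from 3.26 to 4.49 and 3.52 to 4.50 in the arrays filed as KO, and no source used here says whether its probe lies in the deleted part. A description label named the other operation for 7 arrays, and groups follow the title. KO TAC replicate 4 stood apart, with a median signal of 445 against 83.7 to 142 on the others, 95.7% of probes well above background against 65.6% to 75.4%, and a median correlation of 0.807 with the other arrays against 0.961 to 0.982, and its scanner file matched no column of the value table. Counts of called members and lists are therefore given with and without it, as are the members' differences after TAC in arrays filed as KO. Values of other single genes, and of genotype differences, are given without it only in part. Those given with all arrays alone may also shift without it. The 10 cardiomyocyte markers, among them Myh6 and Tnnt2, were well above background in every group.

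The endoplasmic reticulum folds, disulfide-bonds and glycosylates proteins bound for membranes and for secretion. When unfolded chains build up, the sensors IRE1 (gene Ern1), PERK (Eif2ak3) and ATF6 leave the chaperone BiP (Hspa5). IRE1 splices the mRNA of Xbp1 into an active form, ATF6 is cleaved into a nuclear factor, and PERK slows translation and raises ATF4, so that chaperones, isomerases and the machinery of endoplasmic reticulum-associated degradation, which returns misfolded proteins to the cytosol, are made. In the heart this response is known from pressure overload and ischaemia. In RNA of a whole tissue, fewer cells of a type and less RNA per cell cannot be told apart.

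The stress response acts through short promoter elements, so the bases upstream of the members' starts are shown for a gene with each pattern found. RefSeq promoters of GRCm38.p6 were matched by symbol for 9 of the 10 members, Manf being the exception. Both strands were searched, from 250 bases before the start to 50 after it, for the endoplasmic reticulum stress element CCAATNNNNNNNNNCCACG, for its compact form ATTGGNCCACG, and for the ATF6-binding core TGACGTG. The 5-base end CCACG, which lies within both elements, was counted too. Capitals mark a match of the full element, its compact form or the core, and each run covers the 250 bases before the start, 5′ to 3′ on the gene's strand.
Hspa5 (chr2:34771840-34772089, + strand): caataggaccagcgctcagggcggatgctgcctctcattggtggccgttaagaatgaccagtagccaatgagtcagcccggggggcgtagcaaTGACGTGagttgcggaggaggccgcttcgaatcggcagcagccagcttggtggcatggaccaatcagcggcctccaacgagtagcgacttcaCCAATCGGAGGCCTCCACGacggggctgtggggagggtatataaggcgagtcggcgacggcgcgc
Pdia6 (chr12:17266339-17266588, + strand): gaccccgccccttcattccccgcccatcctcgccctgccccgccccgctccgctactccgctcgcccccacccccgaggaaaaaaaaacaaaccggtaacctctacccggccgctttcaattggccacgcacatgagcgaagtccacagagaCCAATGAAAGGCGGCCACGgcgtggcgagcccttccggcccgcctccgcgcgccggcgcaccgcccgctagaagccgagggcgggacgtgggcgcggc
Creld2 (chr15:88819396-88819645, + strand): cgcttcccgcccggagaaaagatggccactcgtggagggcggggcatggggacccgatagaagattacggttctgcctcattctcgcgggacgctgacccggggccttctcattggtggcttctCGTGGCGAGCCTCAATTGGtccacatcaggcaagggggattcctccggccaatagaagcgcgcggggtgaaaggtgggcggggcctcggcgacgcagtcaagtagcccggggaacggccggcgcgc
Herpud1 (chr8:94386179-94386428, + strand): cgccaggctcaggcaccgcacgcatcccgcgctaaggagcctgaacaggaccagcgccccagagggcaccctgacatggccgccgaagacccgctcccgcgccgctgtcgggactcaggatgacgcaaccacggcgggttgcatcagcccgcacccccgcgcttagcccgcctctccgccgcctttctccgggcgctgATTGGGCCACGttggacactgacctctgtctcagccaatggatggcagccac
The full element was found in 5 of the 9 promoters, those of Hspa5, Hsp90b1, Calr, Pdia6 and Creld2, against 39 of 32851 promoters in the table (0.119%). Hsp90b1 held 2 matches. The compact form was found in Herpud1 alone among the members and in 12 promoters of the table (0.0365%). The core was found in Hspa5 alone, against 2.01% of all promoters, and CCACG in 8 of the 9, against 32.8%. Read on the strand where each matched, with positions counted back from the gene's start, the elements were as follows.
Hspa5, bases -65 to -47: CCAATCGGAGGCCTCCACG
Hsp90b1, bases -212 to -194: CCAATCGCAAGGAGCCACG
Hsp90b1, bases -107 to -89: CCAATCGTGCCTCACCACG
Calr, bases -162 to -144: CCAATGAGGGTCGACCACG
Pdia6, bases -98 to -80: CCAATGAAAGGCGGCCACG
Creld2, bases -126 to -108: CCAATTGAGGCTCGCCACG
Herpud1, bases -52 to -42: ATTGGGCCACG
The promoters of Xbp1, Pdia4 and Dnajb9 held none of the full element, the compact form or the core in this window. A match describes these letters only.

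**Figure D1:**
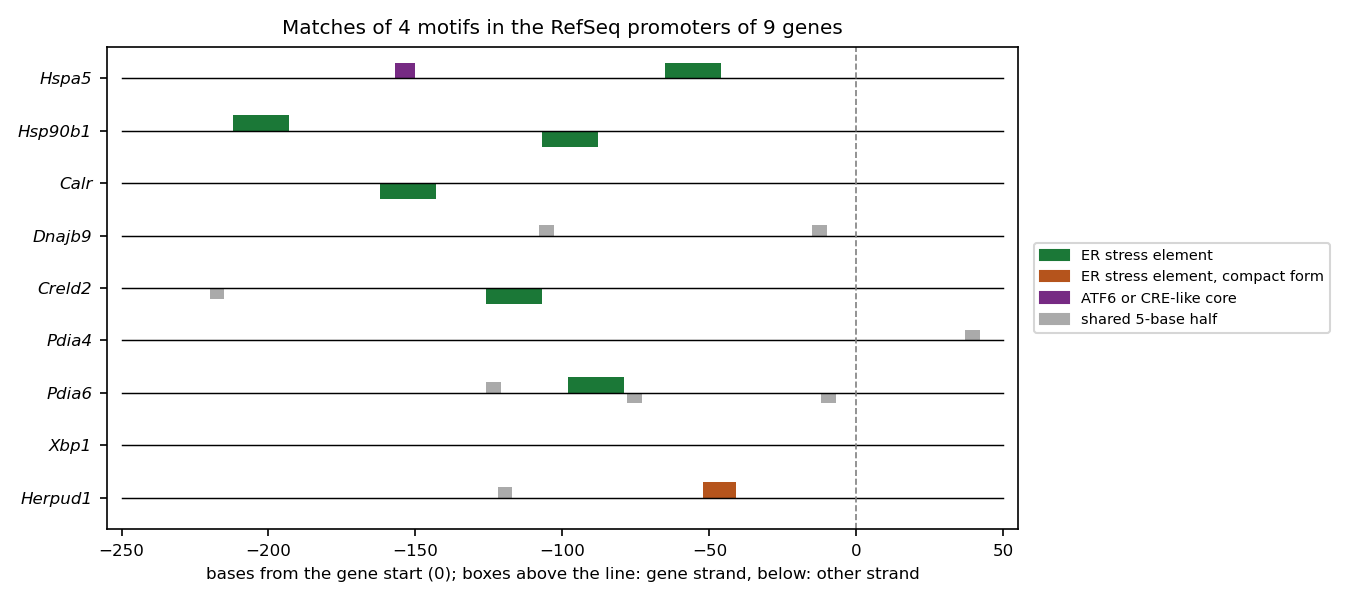
Positions of 4 motifs in the promoters of 9 genes, in bases from the gene start on the x axis. Boxes above a line match the gene's strand and boxes below it the other strand. Hspa5, Hsp90b1, Calr, Creld2 and Pdia6 hold the full element (green), and Herpud1 holds the compact form (orange) at -52 to -42.

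The first question was whether pressure load changed these genes in arrays filed as Cre. None of the 10 passed limma's test at an adjusted p under 0.05, and 1 did so at an unadjusted p under 0.05. Among all features 4.30% were called higher and 1.64% lower. The members' median log2 difference was 0.12, against -0.05 over all features, and 7 of 10 were above 0. Without KO TAC replicate 4, which is no part of this comparison but enters the shared estimate of the spread, 1 member was called higher, with 8.36% of features called higher and 5.92% lower.

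In arrays filed as KO, Herpud1 fell and Xbp1 rose after TAC, and these 2 of 10 members were called, with 10.6% of all features called higher and 12.6% lower. The members' median difference of 0.13 lay close to that of all features, 0.11. With KO TAC replicate 4 left out, the median over the members was 0.45 and that over all features -0.09, and 6 members were called. Xbp1, Manf, Pdia4, Pdia6 and Creld2 rose and Herpud1 fell, with 15.2% of features called higher and 17.4% lower. The count of members called thus rests on whether that array is kept.

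**Figure D2:**
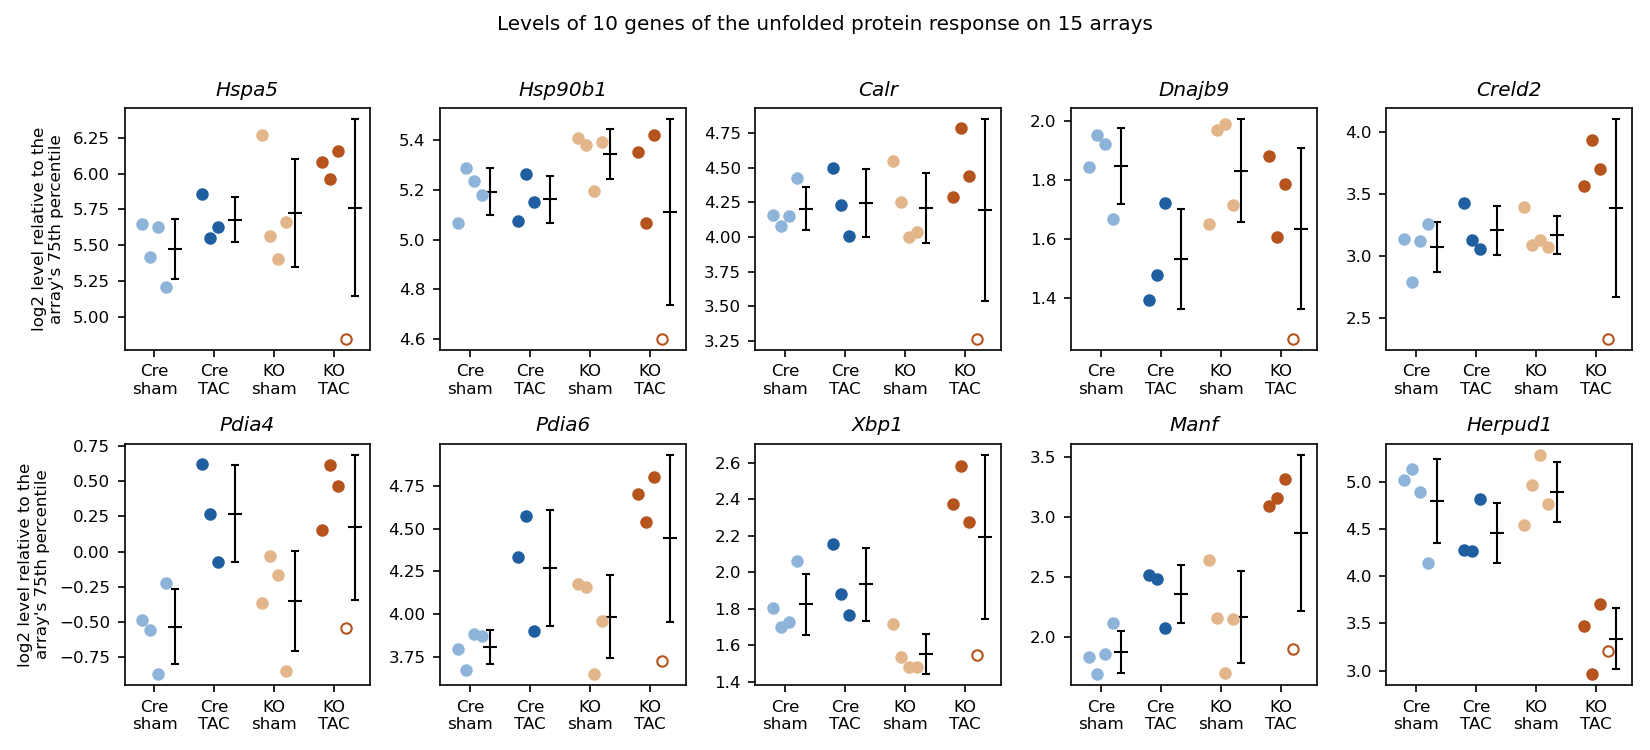
Log2 level relative to the array's 75th percentile (y axis) of the 10 genes in the 4 groups (x axis). Each point is 1 array, the open circle is KO TAC replicate 4, and bars give the mean and SD of each group with all arrays. Herpud1 reads 2.96 to 3.71 on the KO TAC arrays, below all other arrays, and the open circle is the lowest KO TAC point for 9 of the 10 genes.

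Herpud1 encodes a membrane protein with a ubiquitin-like domain that organises the degradation complex of the endoplasmic reticulum, and it is known as one of the genes most readily raised by unfolded proteins. Its log2 levels were 5.02, 5.14, 4.90 and 4.14 on the Cre sham arrays and 4.28, 4.27 and 4.82 on the Cre TAC arrays. They were 4.54, 4.96, 5.29 and 4.76 on the KO sham arrays and 3.48, 2.96, 3.71 and 3.20 on the KO TAC arrays. The 4 KO TAC arrays, the one that stood apart included, were the 4 lowest of the 15, and they did not overlap with any other group.

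The fall of Herpud1 in arrays filed as KO was 1.55 on the log2 scale (-1.55 ± 0.26, SE), 0.341 of the sham level, with a limma adjusted p of 0.0010. Leaving out KO TAC replicate 4, the difference was -1.51 ± 0.27 with an adjusted p of 0.0013, and over the 15 fits that each left out 1 array it ran from -1.68 to -1.42 and stayed called. Arrays were hybridised 4 to a slide, and arrays of 1 slide deviated together from their group means. Within slides 1 to 4 the KO TAC array lay -1.58, -1.49, -1.58 and -1.56 from the KO sham array. The 4 slides thus gave nearly the same difference, also with the array that stood apart. On slide 4, however, that array read below the KO sham array for most other members too. Those differences ran from -0.81 for Hspa5 to -0.24 for Pdia6, with only Xbp1 (0.07) and Pdia4 (0.30) above 0. The part of this shift in the slide 4 value of Herpud1 was not tested. With slide as a block the difference was -1.55 with an adjusted p of 2.3e-04.

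In arrays filed as Cre the difference of Herpud1 was smaller, -0.34 ± 0.28 (SE), with an adjusted p of 0.636. Within slides 1, 3 and 4 it was 0.14, -0.20 and -0.63, so the sign was not shared. The difference between the responses, KO minus Cre, was -1.21 ± 0.38 with a limma adjusted p of 0.364, which did not pass over all features. Among the alternatives run it passed in 1, a fit with slide as a block that left out KO TAC replicate 4, at -1.26 and an adjusted p of 0.035. With all arrays and slide as a block the adjusted p was 0.0867.

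Xbp1, the transcription factor that IRE1 activates by splicing its mRNA, rose in arrays filed as KO. The files do not say whether its 1 probe tells the spliced from the unspliced form. Its log2 levels were 1.72, 1.53, 1.48 and 1.48 on KO sham arrays and 2.37, 2.58, 2.28 and 1.55 on KO TAC arrays. Only replicate 4 lay within the sham range. On Cre sham arrays they were 1.81, 1.70, 1.73 and 2.07, and on Cre TAC arrays 2.16, 1.88 and 1.77, which overlap.

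The rise of Xbp1 in arrays filed as KO was 0.64 ± 0.20 (SE), 1.56-fold, with a limma adjusted p of 0.037. It was 0.86 ± 0.14 without KO TAC replicate 4, 1.81-fold, with an adjusted p of 7.2e-04, and the groups no longer overlapped. The call was lost in 8 of the 15 fits that left out 1 array, those without Cre sham replicate 1, any KO sham array or KO TAC replicates 1, 2 or 3, with adjusted p up to 0.101. Within slides 1 to 4 the difference was 0.87, 0.84, 0.79 and 0.07, the last from replicate 4. In arrays filed as Cre it was 0.11 ± 0.22 with an adjusted p of 0.930. The difference between the responses was 0.53 ± 0.30 with an adjusted p of 0.812, and 0.74 with 0.035 in the fit with slide as a block and without KO TAC replicate 4. On the authors' deposited values, with genotypes turned to those of the scanner files, it was 0.68 with an adjusted p of 0.037. That set of arrays differs: it lacks KO TAC replicate 4, and a column that no scanner file matched counted as Cre TAC there.

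**Figure D3:**
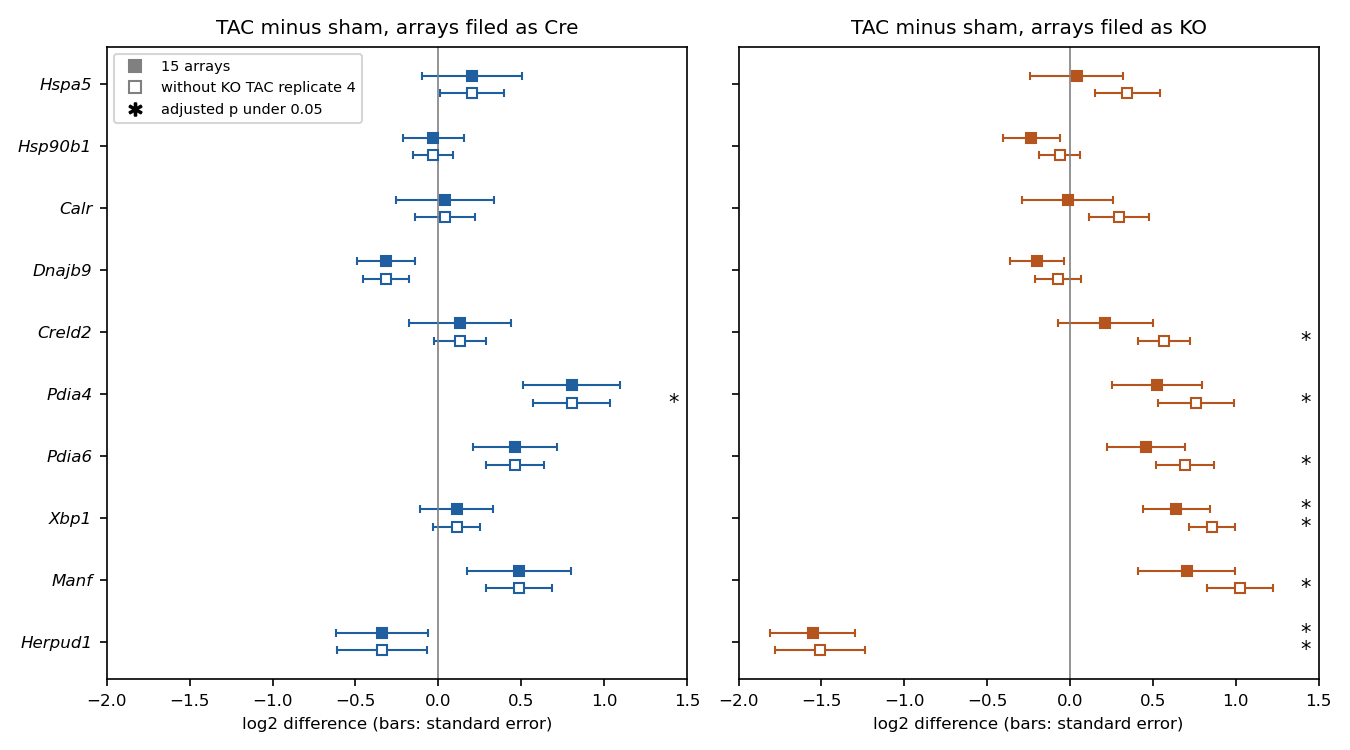
Log2 difference of TAC minus sham (x axis) for the 10 genes in arrays filed as Cre (left) and as KO (right), with standard errors. Filled squares use all 15 arrays, open squares leave out KO TAC replicate 4, and asterisks mark a limma adjusted p under 0.05. In the right panel 2 filled and 6 open squares carry an asterisk.

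Manf encodes a small protein of the endoplasmic reticulum lumen that is secreted under stress. It read 2.64, 2.17, 1.71 and 2.15 on KO sham arrays and 3.10, 3.16, 3.32 and 1.90 on KO TAC arrays. Of the 4 KO TAC arrays 3 were thus above every other array, and replicate 4 lay among the sham arrays. The difference in arrays filed as KO was 0.70 ± 0.29 (SE) with a limma adjusted p of 0.102, and without replicate 4 it was 1.03 ± 0.20, 2.04-fold, with an adjusted p of 0.0021. Cre sham arrays read 1.84, 1.70, 1.86 and 2.12, and Cre TAC arrays 2.52, 2.49 and 2.08, a difference of 0.49 ± 0.31 that did not pass (adjusted p = 0.497). Within slides it was above 0 on all 3 slides filed as Cre, from 0.25 to 0.63, and on slides 1, 2 and 3 filed as KO, at 0.52, 0.93 and 1.61, with -0.25 on slide 4.

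Pdia4 and Pdia6 are protein disulfide isomerases, which form and rearrange the disulfide bonds of new proteins. Pdia4 read -0.49, -0.56, -0.87 and -0.22 on Cre sham and 0.62, 0.26 and -0.07 on Cre TAC arrays, groups that did not overlap. Its difference there, 0.80 ± 0.29 (SE), was the largest of the 10 in arrays filed as Cre and missed the threshold with all arrays (limma adjusted p = 0.139). The same difference had an SE of 0.23 without KO TAC replicate 4 and passed (adjusted p = 0.036). Within slides 1, 3 and 4 it was 0.84, 0.41 and 1.13.

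Pdia4 on KO sham arrays was -0.36, -0.03, -0.17 and -0.85, and on KO TAC arrays 0.15, 0.62, 0.47 and -0.54. The difference was 0.52 ± 0.27 (adjusted p = 0.194), and 0.76 ± 0.23 without replicate 4 (adjusted p = 0.023). Within the slides it was above 0 on all 4, from 0.18 to 0.98. Without that array the difference between its responses, KO minus Cre, was -0.04 ± 0.33.

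Pdia6 read 3.79, 3.67, 3.88 and 3.87 on Cre sham and 4.33, 4.57 and 3.90 on Cre TAC arrays, which did not overlap, with a difference of 0.46 ± 0.25 (limma adjusted p = 0.384). On KO sham arrays it was 4.17, 4.16, 3.65 and 3.96, and on KO TAC arrays 4.70, 4.54, 4.80 and 3.72. The difference was 0.46 ± 0.23 (adjusted p = 0.191), and 0.70 ± 0.17 without replicate 4 (adjusted p = 0.0090). Its 3 probes all read higher after TAC, by 0.39 to 0.46 in arrays filed as Cre and by 0.02 to 0.46 in the arrays filed as KO. Pdia4 and Pdia6 were the 2 members higher on every TAC than on every sham array filed as Cre, and 0 were lower on every one, against 13.4% and 13.5% of features. Filed as KO, 0 members were higher and 1, Herpud1, lower on every TAC array, against 10.4% and 13.3% of features. Without replicate 4 these were 5 and 1, against 17.5% and 19.5%.

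The chaperones showed smaller differences on their brightest probes. Hspa5, whose product BiP binds unfolded chains and restrains the stress sensors, read 5.65, 5.42, 5.63 and 5.21 on Cre sham and 5.86, 5.55 and 5.63 on Cre TAC arrays. On KO sham arrays it read 6.27, 5.56, 5.40 and 5.66, and on KO TAC arrays 6.08, 5.97, 6.16 and 4.84. The highest and the lowest of the 15 values were thus both in arrays filed as KO, KO sham replicate 1 and KO TAC replicate 4. Its difference after TAC was 0.20 ± 0.30 (SE) in arrays filed as Cre and 0.04 ± 0.28 in the arrays filed as KO, with limma adjusted p of 0.875 and 0.936. Without replicate 4 the latter was 0.35 ± 0.19 with an adjusted p of 0.204.

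Hsp90b1 (GRP94), the HSP90 of this compartment, and Calr (calreticulin), a calcium-binding chaperone of glycoproteins, did not pass in any of the 5 comparisons, with or without KO TAC replicate 4. Hsp90b1 differed by -0.03 ± 0.19 (SE) in arrays filed as Cre and -0.23 ± 0.17 in the arrays filed as KO. Without replicate 4 the latter was -0.06 ± 0.12. Its other probe gave 0.27 filed as Cre. Filed as KO that probe gave -0.08 with all arrays and 0.17 without replicate 4, so its sign depended on the probe and the array. Calr differed by 0.04 ± 0.29 and -0.01 ± 0.27, and by 0.30 ± 0.18 in arrays filed as KO without replicate 4. The dimmer probe of Calr gave 0.44 ± 0.19 filed as Cre and 0.62 ± 0.18 filed as KO. Without replicate 4 that probe gave 0.59 filed as KO, so the difference of Calr depended on the probe. Dnajb9 (ERdj4), a J-domain partner of BiP, differed by -0.31 ± 0.18 filed as Cre and -0.20 ± 0.16 filed as KO. All 3 of its probes lay below 0 in both with all arrays. Without replicate 4 the difference filed as KO was -0.07 ± 0.14, and the probes ran from -0.10 to 0.15. Creld2, a disulfide isomerase-like protein known to be raised by stress of the endoplasmic reticulum, read 3.40, 3.09, 3.13 and 3.07 on KO sham and 3.56, 3.94, 3.70 and 2.33 on KO TAC arrays. Its difference was 0.21 ± 0.28 (limma adjusted p = 0.636), and 0.56 ± 0.16 without replicate 4 (adjusted p = 0.015). Filed as Cre it was 0.13 ± 0.31.

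**Figure D4:**
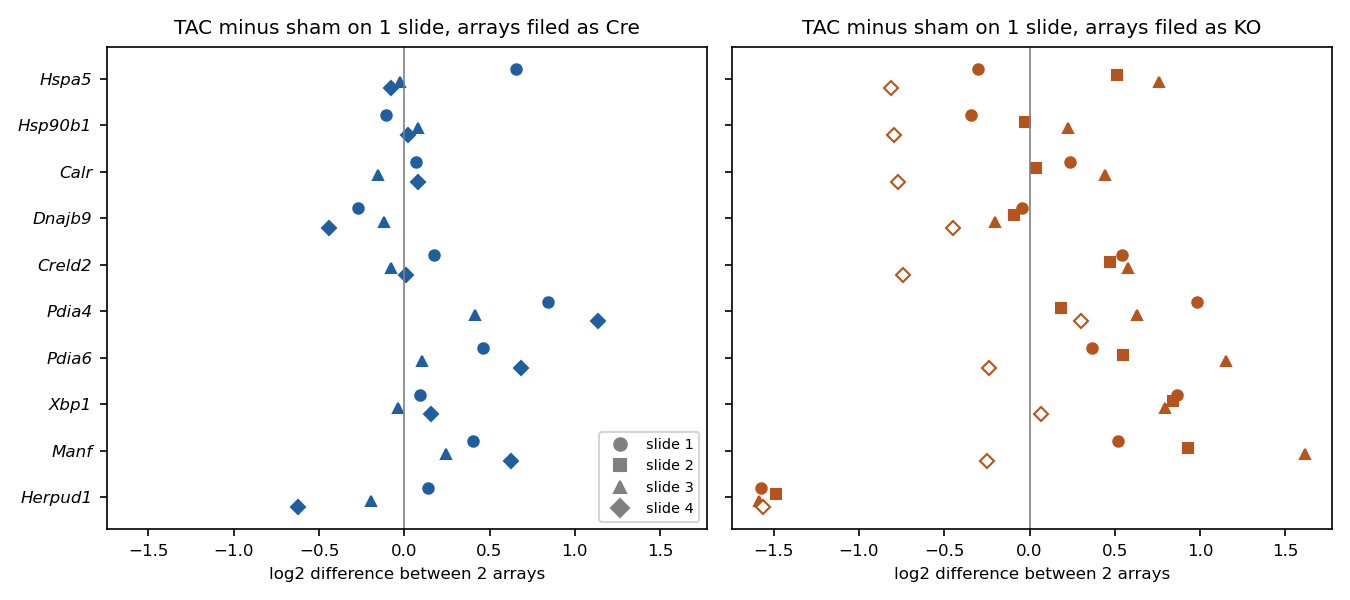
Log2 difference between the TAC and the sham array of 1 slide (x axis) for the 10 genes, with arrays filed as Cre (left, slides 1, 3 and 4) and as KO (right, slides 1 to 4). Symbols stand for slides, and open diamonds use KO TAC replicate 4. The 4 differences of Herpud1 filed as KO lie between -1.58 and -1.49, and the open diamonds are the lowest of their row for all genes but Herpud1 and Pdia4.

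Between genotypes the members were close after sham. None passed limma's test, 0 did so at an unadjusted p under 0.05, and 0.0155% of features were called in either direction. Their differences, KO minus Cre as filed, ran from -0.27 for Xbp1 to 0.29 for Manf. After TAC 1 member was called, Herpud1 at -1.12 ± 0.28 (SE) with an adjusted p of 0.046, against 1.14% of features called higher and 1.91% lower. This call was lost in 13 of the 15 fits that left out 1 array, all but those without Cre sham replicate 4 or KO TAC replicate 4, with adjusted p up to 0.249. Within slides 1, 3 and 4 it was -1.32, -1.12 and -1.07.

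Without KO TAC replicate 4, Herpud1 was at -1.08 ± 0.29 (adjusted p = 0.038) and Manf at 0.83 ± 0.21 (adjusted p = 0.032) between genotypes after TAC by limma, with 4.36% of features called higher and 5.02% lower. Xbp1 at 0.48 ± 0.15 and Creld2 at 0.53 ± 0.17 missed the threshold (adjusted p = 0.067 and 0.066). With slide as a block and that array left out both passed by limma, Xbp1 at 0.47 (adjusted p = 0.014) and Creld2 at 0.58 (adjusted p = 0.010), beside Herpud1 at -1.17 and Manf at 0.88. With all arrays kept and no block, limma's test of the difference between the TAC responses called 0 members, 1 at an unadjusted p under 0.05, and 0.0116% of features. Without KO TAC replicate 4 it called 0 members, with 2 at an unadjusted p under 0.05. With slide as a block besides, Xbp1 and Herpud1 passed, both at an adjusted p of 0.035. The shares of all features called in the fit with slide as a block and without that array are not given here. Its calls can therefore not be set against the shares above. Each genotype direction would turn under the labels of the value table.

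The members differed in how they varied together. Over the 14 arrays without KO TAC replicate 4, Pdia6 and Manf had a Pearson r of 0.94, Manf and Creld2 of 0.89, and Xbp1 and Creld2 of 0.85. Herpud1 ran opposite to them, with r of -0.93 against Xbp1, -0.90 against Manf and -0.90 against Creld2. These arrays share groups, slides and scaling, and the r values describe them with no test. By correlation with the members' mean over all 15 arrays, the 6 most alike named genes were Ptma, Stk3, Topbp1, Rps15, Polr2g and Hnrnpk, with r from 0.92 to 0.95. With KO TAC replicate 4 left out they were Arf4, Sfxn1, Dync1li2, Nif3l1, Cryab and Lrrc8d, with r from 0.94 to 0.96, and none was shared. Against that mean, Creld2 had the highest r of the members with all arrays, at 0.93, and Manf without the array, at 0.96. Herpud1 had -0.16 and -0.815. Each member is itself part of the mean, so the members' r values are not comparable with those of the other genes.

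Wider lists, of the same pathway but for 12 cytosolic heat shock genes, held 142 genes that are not members. Of the 142, 139 were measured, and the pooled counts and medians here include the cytosolic genes. In arrays filed as KO 32 were called higher after TAC and 9 lower, with a median of 0.22 against 0.11 over all features. In arrays filed as Cre 9 were higher and 2 lower, with a median of 0.26 against -0.05. These counts were 57 and 10 of 138 filed as KO, and 36 and 4 filed as Cre, without KO TAC replicate 4. Over all features 10.6% were called higher and 12.6% lower filed as KO, 15.2% and 17.4% without that array, and 4.30% and 1.64% filed as Cre, 8.36% and 5.92% without it, and the counts of each list below are to be read against these shares. In this and the next 5 paragraphs values are log2 differences of TAC minus sham with their SE, and each call is limma's at an adjusted p under 0.05.

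Of 9 sensors and membrane-bound transcription factors, 3 rose and 1 fell in arrays filed as KO, and 4 rose and 1 fell without KO TAC replicate 4. Filed as Cre none passed with all arrays, and Creb3 and Creb3l2 rose without that array. Creb3l1, a membrane-bound factor known for collagen secretion, rose by 1.70 ± 0.36 (adjusted p = 0.0046) and its relative Creb3 by 1.05 ± 0.20 (adjusted p = 0.0022). Ern1, the gene of IRE1, rose by 0.88 ± 0.28 (adjusted p = 0.036) and without KO TAC replicate 4 by 0.54 ± 0.16 (adjusted p = 0.020). The former is a call lost in 6 of 15 fits that left out 1 array: Cre sham replicate 2, any KO sham array or KO TAC replicate 2. Atf6 differed by -0.54 ± 0.15 (adjusted p = 0.023), but its 2 probes gave -0.54 and 0.19, and the call was lost without KO sham replicate 3 (adjusted p = 0.073). Eif2ak3, the gene of PERK, differed by 0.16 ± 0.24, or 0.31 without replicate 4, and did not pass. Filed as Cre, Ern1, Atf6 and Eif2ak3 differed by 0.29 ± 0.30, 0.42 ± 0.17 and 0.23 ± 0.26.

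In the branch of PERK, ATF4 and CHOP, 3 of 14 genes rose and 4 fell in arrays filed as KO, and 1 rose and 1 fell in those filed as Cre. Leaving out KO TAC replicate 4, 3 rose and 5 fell filed as KO, and 3 rose and 2 fell filed as Cre. Atf3, an early stress factor, rose by 2.72 ± 0.48 (adjusted p = 0.0015) filed as KO, and by 3.09 ± 0.45 without KO TAC replicate 4. Filed as Cre it was at 1.59 ± 0.52 (adjusted p = 0.098), a difference that passed without KO TAC replicate 4 (adjusted p = 0.035). Atf4 rose by 0.90 ± 0.24 filed as KO (adjusted p = 0.017), and by 1.11 ± 0.21 without KO TAC replicate 4 (adjusted p = 0.0017). The call with all arrays was lost without KO sham replicate 1 or KO TAC replicate 3, with adjusted p up to 0.057. Chac1, which degrades glutathione, fell by 2.09 on the log2 scale (-2.09 ± 0.32, adjusted p = 6.3e-04), and Gadd45a, a growth arrest gene, by 2.17 (-2.17 ± 0.31, adjusted p = 4.4e-04). Gadd45a also fell filed as Cre, by 2.20 (-2.20 ± 0.33, adjusted p = 0.0025). Ddit3, the gene of CHOP, was at -0.17 ± 0.17 filed as KO and -0.59 ± 0.18 filed as Cre (adjusted p = 0.501 and 0.074). Without KO TAC replicate 4 it was lower in both (-0.34 and -0.59, adjusted p = 0.032 and 0.0053). The genes that moved in this branch thus went both ways.

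The longest list held the machinery that brings proteins into and out of the endoplasmic reticulum. Of its 25 genes of translocation, signal peptide cleavage and transport, 11 rose and none fell in arrays filed as KO, with a median of 0.54 against 0.11 over all features, and 18 rose without KO TAC replicate 4. Filed as Cre 2 rose, Kdelr3 and Sec61a1, and 8 did without that array. The KDEL receptors, which return resident proteins from the Golgi, were at 1.76 ± 0.30 for Kdelr3 (adjusted p = 0.0012) and 1.40 ± 0.29 for Kdelr2 (adjusted p = 0.0040), and the signal peptidase subunit Spcs3 at 1.25 ± 0.28 (adjusted p = 0.0067), all filed as KO. Of 14 N-glycosylation genes 3 rose and none fell filed as KO: Gfpt1, the first enzyme of the hexosamine pathway, at 1.57 ± 0.30 (1.17 without KO TAC replicate 4), Pgm3 at 1.37 ± 0.22 and the oligosaccharyltransferase subunit Stt3a at 1.11 ± 0.20. The other probe of Pgm3 gave -0.01. In this list 6 rose filed as KO without KO TAC replicate 4, and 4 filed as Cre, against 1 with all arrays.

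Of 14 other disulfide isomerases and oxidases, 3 rose and 1 fell in arrays filed as KO, and 2 rose filed as Cre. Without KO TAC replicate 4, 6 rose and 1 fell filed as KO and 5 rose filed as Cre. Qsox1, a sulfhydryl oxidase, rose by 2.65 ± 0.25 (adjusted p = 8.8e-05) filed as KO and by 1.57 ± 0.27 filed as Cre (adjusted p = 0.0050), and both its probes read higher. P4hb, a disulfide isomerase and subunit of collagen prolyl hydroxylase, rose by 1.09 ± 0.21 filed as KO (adjusted p = 0.0030). Filed as Cre it rose by 0.85 (adjusted p = 0.048), a call lost in 13 of the 15 fits that left out 1 array, with adjusted p up to 0.291. Of 17 other chaperones 3 rose and 2 fell filed as KO, and 7 and 2 without KO TAC replicate 4. Filed as Cre 1 rose and 1 fell, and 4 and 1 without that array. Fkbp11, a prolyl isomerase of the secretory pathway, rose by 1.67 ± 0.37 (adjusted p = 0.0058), and Cdnf, the paralogue of Manf, fell by 1.64 (-1.64 ± 0.19, adjusted p = 1.6e-04), where Manf itself was at 0.70. Cdnf also fell filed as Cre, by 1.14 (-1.14 ± 0.21, adjusted p = 0.0065). Hyou1, a large HSP70 relative, and Sdf2l1, a BiP cofactor, were at 0.13 ± 0.26 and 0.41 ± 0.30 filed as KO and did not pass, and without KO TAC replicate 4 Hyou1 passed (0.47, adjusted p = 0.011) and Sdf2l1 did not (0.68, adjusted p = 0.065).

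Of 22 degradation genes 2 rose and none fell in arrays filed as KO, a share near the 10.6% of all features called higher. Their median was 0.12 against 0.11 over all features. Without KO TAC replicate 4, 8 rose, against 15.2% of features called higher. Ufd1, a partner of the extracting ATPase Vcp, rose by 1.05 ± 0.15 (adjusted p = 5.5e-04) on its brightest probe, with 0.07 on the other. Ubxn4, a membrane anchor for Vcp, rose by 0.60 ± 0.20 (adjusted p = 0.048), a call lost in 14 of the 15 fits that left out 1 array, all but that without KO TAC replicate 4, and its 4 probes ran from -0.02 to 0.95. Filed as Cre none of the 22 passed, and 3 did without that array. Of 12 collagen folding genes 2 rose in both genotypes, Fkbp10 at 1.45 ± 0.27 and P3h3 at 0.63 ± 0.21 filed as KO, the call of P3h3 there being lost in 10 of the 15 fits. Filed as Cre they were at 1.23 ± 0.29 and 0.90 ± 0.22, calls lost in 5 and 6 of the 15 fits, with adjusted p up to 0.158 and 0.197. The list's median was 0.54 filed as Cre, with 11 of 12 above 0, against -0.05 over all features. Filed as KO it was -0.03, with 5 of 12 above 0, against 0.11. Leaving out KO TAC replicate 4, 3 of 11 collagen folding genes rose filed as KO and 5 filed as Cre, with medians of 0.24 and 0.46. Of 12 cytosolic heat shock genes, which belong to the stress response of another compartment, 2 rose and 1 fell filed as KO: Hspb1 at 1.12 ± 0.24, Hspa4 at 0.70 ± 0.18, and Hsph1 at -1.88 ± 0.34. Filed as Cre none passed with all arrays, and 2 rose and 1 fell without KO TAC replicate 4. Probes of Hspa4 ran from -1.43 to 0.70. The constitutive Hspa8 was at 0.10 ± 0.38 and did not pass.

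**Figure D5:**
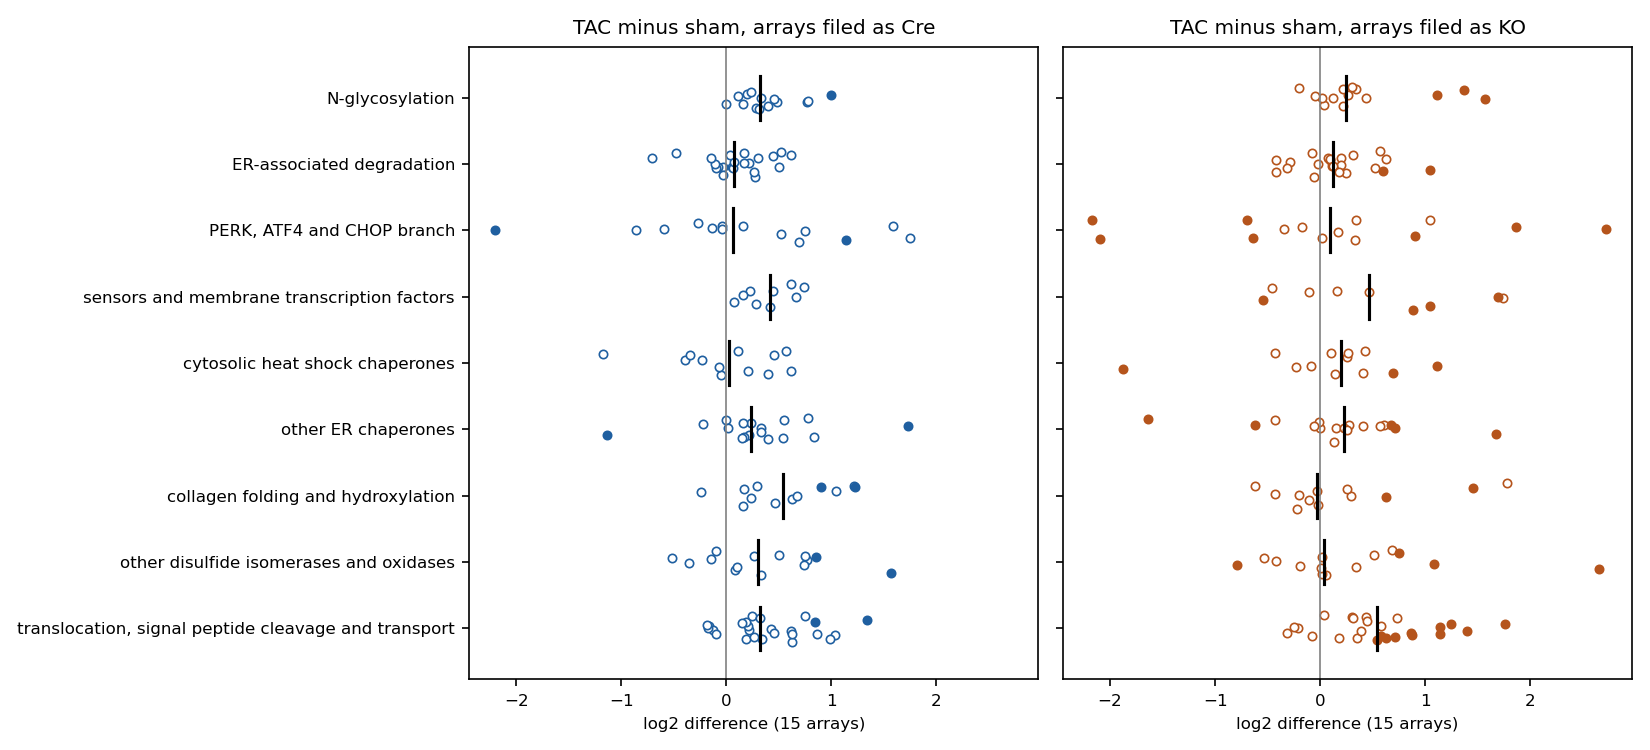
Log2 difference of TAC minus sham over all 15 arrays (x axis) for the genes of 9 lists in arrays filed as Cre (left) and as KO (right). Each circle is a gene, filled where the limma adjusted p is under 0.05, and the black bar is the list's median. In the translocation list 11 circles are filled on the right, all above 0, and in the list of PERK, ATF4 and CHOP 3 are filled above 0 and 4 below.

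Markers of other cells also moved with the operation. Summed levels are in units of each array's 75th percentile, and calls are limma's at an adjusted p under 0.05. The 7 neutrophil markers summed to 0.517 to 1.76 on Cre sham and 9.09 to 11.1 on Cre TAC arrays, and to 0.381 to 13.6 and 10.1 to 51.0 on those filed as KO, where 6 were called higher. Filed as Cre 2 were called higher. Without KO TAC replicate 4 these counts were 6 filed as KO and 4 filed as Cre. The 10 fibroblast markers summed to 284 to 373 and 484 to 661 on sham and TAC arrays filed as Cre, with 4 called higher and 1 lower. Filed as KO they summed to 330 to 524 and 356 to 533, with 3 called higher, Col1a1, Col1a2 and Postn, and 3 lower, Dpt, Gsn and Tcf21. Without KO TAC replicate 4, 5 were called higher filed as KO, Col3a1 and Pdgfra being added, and the same 3 lower. The 9 macrophage and monocyte markers summed to 76.8 to 108.2 and 107.4 to 140 filed as Cre, with a median difference of 1.25 and 2 called higher, and to 89.4 to 122 and 73.3 to 123 filed as KO, with none called. Without that array 3 were called higher filed as Cre and none filed as KO.

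Red blood cell markers, 5 genes, summed to 440 to 529 and 268 to 416 filed as Cre and to 290 to 711 and 80.5 to 293 filed as KO, where Hba-a1 and Hbb-bt were called lower. Without KO TAC replicate 4, only Hbb-bt of the 4 then measured was called lower filed as KO. The 8 endothelial markers summed to 70.7 to 97.9 and 50.9 to 72.4 filed as Cre and to 58.6 to 90.2 and 27.0 to 73.6 filed as KO, where Kdr, Tek and Tie1 were called lower. Without that array these calls stayed, and Tek was also called lower filed as Cre. The 8 markers of smooth muscle and pericytes had 1 called higher and 3 lower filed as KO and none filed as Cre, and the 5 adipocyte markers 2 called lower filed as Cre and 1 filed as KO. Without that array smooth muscle and pericytes had 2 higher and 3 lower filed as KO, and 2 higher and 1 lower filed as Cre. Adipocyte markers then had 3 lower filed as Cre and 2 filed as KO. Plasma cells are rich in this response. The 12 markers of B, T and plasma cells summed to 1.19 to 2.36 and 1.16 to 2.51 filed as Cre, and to 1.37 to 2.31 and 1.85 to 4.83 filed as KO. Of these Sdc1 was called higher and Cd79b and Tnfrsf17 lower filed as KO, and without KO TAC replicate 4 1 of 12 lay above 0, with a median of -0.72 and 4 called lower. Filed as Cre 1 was called lower, and 1 higher and 3 lower without that array.

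The 10 cardiomyocyte markers summed to 2255 to 2329 and 2111 to 2553 filed as Cre, and to 2030 to 2768 and 1264 to 2339 filed as KO, where Myh6 and Pln were called lower. Both calls stayed when KO TAC replicate 4 was left out, and Pln was then called lower filed as Cre too. Without KO TAC replicate 4 the lowest KO TAC sums were 1787 for cardiomyocyte, 17.2 for neutrophil, 216 for red blood cell and 47.8 for endothelial markers. The part of these shifts in the members' values was not tested.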

How the data were processed

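RNA was amplified and Cy3-labelled for Agilent mouse arrays of 1 colour, per the labels' protocols. The scanner files give a background-subtracted intensity per spot, made by Agilent Feature Extraction 10.7.3.1 and not scaled from array to array, per the file headers. The authors' deposited value table, an alternative here, holds log2 values whose columns share a distribution (medians of 7.22 to 7.23); this scale was found by comparison with the scanner values, and no source used here gives its background treatment. The submitters' processing notes name limma without a version.

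Control and outlier spots were left out and spots of a probe averaged, giving 41174 probes. Of these 24844 were named through a RefSeq table of GRCm38.p6 (17178 symbols). Signals were taken as log2 minus each array's 75th percentile. Probes well above background on 3 or more arrays entered, genes were read from their brightest probe, and probes without a name were kept as features. A 4-group model over the 15 arrays was fitted with limma 3.58.1 under R 4.3.3, with Benjamini-Hochberg adjustment over all 25780 features in each of 5 comparisons. SE is limma's moderated standard error, and group members are separate animals per the labels. The fit was also run on simulated data with independent noise on each array. That simulation held no shared slide deviations and no array that stood apart, so it cannot show how these affect the calls. Genes named are the members, up to 3 called genes of largest difference per pathway list, a few fixed regulators, Klf4 and the 6 genes most like the members' mean. The members and lists were chosen with earlier results of these data known. The members' proteins were not used here. Tables and figures used Python 3.11.15, pandas 2.3.3 and matplotlib 3.10.9.

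Slides followed from the array barcodes. Arrays of a slide deviated together from their group means (median correlation 0.28 over 21 pairs, -0.09 to 0.62), so fits with a slide block and differences within each slide are given. Alternatives covered background correction, scaling, the filter, probe averaging, the value table, blocks, array weights, the compared groups alone, the other operation label and each array left out.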

Additional observations from a re-analysis of the deposited data

Results flagged for a closer look

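In groups of 4 arrays, a value was marked where its gap to the nearest array took a larger share of the group's range than Dixon's criterion allows. Over 30 groups of member values 3 were marked, and chance marks about 1 in 20. Hspa5 on KO TAC replicate 4 read 4.84 on the log2 scale, with the nearest KO TAC array at 5.97. Manf on the same array read 1.90, with the nearest at 3.10. Both come from the array that stood apart in signal and correlation, and the members' differences after TAC filed as KO are given with and without it. Hsp90b1 on KO sham replicate 3 read 5.20, with the nearest KO sham array at 5.38. Its difference after TAC did not pass with that array kept.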

How the results depend on the processing

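Values are counts of members called by limma at an adjusted p under 0.05, against 0 and 2 for TAC filed as Cre and as KO, 0 and 1 between genotypes after sham and after TAC, and 0 for the difference of responses. The count after sham was 0 under every alternative run. For TAC filed as Cre it became 6 and 3 on the authors' values, with their own labels and with genotypes turned to those of the scanner files (an alternative chosen after seeing the data), and 1 with array weights or with the slide block and KO TAC replicate 4 left out. Leaving out each array in turn gave 0 to 1. For TAC filed as KO it was 4 with normexp and quantile or with quantile normalization, 1 with median scaling, with no filter, or with the compared groups alone, 6 on the authors' values with genotypes turned or with the slide block and KO TAC replicate 4 left out, 7 with array weights, and 0 by the operation of the description label. Leaving out each array gave 1 to 6. After TAC the genotype count was 0 with normexp and quantile, quantile, median scaling, no filter, the compared groups alone and the description label, 4 on the authors' values under either labelling and with the slide block and KO TAC replicate 4 left out, and 2 with array weights. Leaving out each array gave 0 to 2. The difference of responses had 1 on the authors' values under either labelling and 2 with the slide block and KO TAC replicate 4 left out. The authors' values are of another set of arrays, since they do not hold the array of KO TAC replicate 4. Their column that no scanner file matched counted as KO TAC under their own labels and as Cre TAC with genotypes turned. The cause of these changes in the counts was not tested. Apart from leaving out KO TAC replicate 4 alone, the shares of all features called in these fits are not given here. Whether a higher count is particular to the members was not tested.

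With the replicate block the counts were 1 for TAC filed as KO, 0 for TAC filed as Cre and 0 between genotypes after TAC. Same-numbered arrays of different groups had a median correlation of -0.06 over 21 pairs, from -0.39 to 0.53. No source used here states that they were paired, and a pairing was not tested.

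The sign turned in 6 cases for a member called with or without the change. Herpud1 for TAC filed as KO was 0.23 by the operation of the description label. On the authors' values with their own labels, genotype differences after TAC were -0.36 for Xbp1, 1.24 for Herpud1, -0.70 for Manf and -0.50 for Creld2, and the difference of responses was -0.68 for Xbp1, as turned genotypes give by construction. Scaling moved the median of all features for TAC filed as KO from 0.11 to -0.15 with quantile normalization and -0.26 with median scaling, and without KO TAC replicate 4 to -0.09. Against these, the members' medians were 0.23, -0.24 and 0.45. Precision is limited by how few arrays there are. No protein comparison was made, and the promoter matches were set beside those of all promoters with no test.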
